A study of Mus musculus with 24 samples.

Results

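The genes described here are 10 targets and partners of the transcription factors ATF4 and CHOP: Atf4, Atf5, Ddit3, Trib3, Sesn2, Ppp1r15a, Asns, Chac1, Psat1 and Phgdh. They were chosen by name among the 31027 loci of the deposited expression table, and all 10 were found, each as a locus with a single gene name. Their levels were compared in 24 liver RNA-seq libraries, 3 in each of 8 groups. The mice were C57BL/6J, and over 16 weeks they ate either chow or high fat food. Every group, the control included, carried Alb-Cre, a Cre recombinase driven by the albumin promoter and so active in hepatocytes. The control carried Alb-Cre alone, and the other genotypes added Jnk1flox/flox, Jnk2flox/flox or both (called Jnk1, Jnk2 and Jnk1Jnk2 below), which remove the stress-activated kinases JNK1 and JNK2 from hepatocytes. Total RNA came from whole liver, so other liver cells keep the floxed alleles, and fewer cells of a type cannot be told apart from less RNA per cell. The labels give neither age nor sex. Whether each replicate is its own mouse is not stated, and the p-values therefore reflect the spread among these samples only, part of which may be technical.

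ATF4 and CHOP act in the integrated stress response. Kinases that sense amino acid shortage, misfolded protein in the endoplasmic reticulum, viral RNA or heme shortage phosphorylate the initiation factor eIF2α, which lowers general translation while the Atf4 mRNA is translated more. ATF4 then raises genes of amino acid supply and, with CHOP (the product of Ddit3), genes that feed back on the response. In liver the pathway answers to dietary protein and to endoplasmic reticulum stress, and because ATF4 is set largely by translation, its mRNA level is not a measure of its protein.

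Levels are given as FPKM (fragments relative to transcript length and to all mapped fragments). The 12 libraries with the Jnk1 allele had 0.845 to 2.47 FPKM of Mapk8, the gene of JNK1, and the 12 others had 3.38 to 5.77. The 12 libraries with the Jnk2 allele had 4.33 to 7.79 FPKM of Mapk9, the gene of JNK2, and the others had 9.01 to 11.9. All 14 hepatocyte markers were found. Relative depth, read from the steps between low values, ranged from 0.292 to 1 of the deepest library, and the absolute depth is unknown. The high fat Jnk1Jnk2 libraries stood apart, with the highest sums of FPKM (849038 to 873399, against 634849 to 734352 elsewhere). Their deviation from the mean over libraries had a Spearman correlation across genes with transcript length of -0.565, -0.621 and -0.562, against -0.255 to 0.399 in the other libraries, so the members' changes in comparisons of diet, of control and of Jnk1 with this group are given also with the length trend removed where that moved them by over 1.5 times or changed a call. Summed pancreas acinar markers reached 1150 FPKM in chow control replicate 3, 1277 in chow Jnk1 replicate 1, 282.6 in chow Jnk2 replicate 2, 86.96 in high fat control replicate 1 and 104.1 in high fat Jnk1 replicate 2, against 4.44 to 26.2 elsewhere. Summed skeletal muscle markers reached 841.4 FPKM in high fat Jnk1Jnk2 replicate 3, 201.1 in chow Jnk1 replicate 1 and 185.9 in chow Jnk2 replicate 1.

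The promoter letters through which ATF4 is best known to act are the C/EBP-ATF response element, searched as TGATGNAA on both strands in RefSeq windows of 300 bases (build GRCm38.p6) that lie mostly before each gene's start and reach a little past it. It was in 3.969% of 32851 windows. All 10 genes had a window, 12 in all, and 3 genes held the element: Asns, Chac1 and Trib3. The parts of these windows before the start of Asns and Chac1 are shown because the levels of these genes went opposite ways with diet. Capitals mark the element. In Asns (chr6:7693210-7693459, minus strand) it begins at position -23 from the gene's start, and in Chac1 (chr2:119350992-119351241, plus strand) it lies on the opposite strand, at position -193. Positions are counted from RefSeq's start, which for Asns lies upstream of the start of the deposited locus (7693182 on the minus strand).
Asns: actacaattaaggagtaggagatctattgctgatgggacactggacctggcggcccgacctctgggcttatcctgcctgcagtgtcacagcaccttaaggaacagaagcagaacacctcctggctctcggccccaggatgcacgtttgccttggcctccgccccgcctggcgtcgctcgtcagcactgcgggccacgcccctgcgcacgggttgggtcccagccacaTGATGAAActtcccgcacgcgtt
Chac1: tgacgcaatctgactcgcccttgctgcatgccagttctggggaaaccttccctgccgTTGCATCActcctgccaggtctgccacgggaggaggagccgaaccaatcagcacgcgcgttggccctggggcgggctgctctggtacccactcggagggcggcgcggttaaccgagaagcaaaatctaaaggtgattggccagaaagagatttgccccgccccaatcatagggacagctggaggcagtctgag
In Trib3 the match, TTACATCA on the opposite strand, lies at position 15, after the start. Of other elements searched on both strands, the cAMP response element TGACGTCA (1.79% of windows) was in Ppp1r15a at position -12. The AP-1 element TGANTCA (7.808% of windows) was in Ddit3, as TGACTCA at position -242. A match says only that these letters are in the window.

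The members spanned a wide range of levels. Atf5, a basic leucine zipper factor abundant in liver, had 98.6 to 517 FPKM, and Atf4 (chr15:80255184-80257541, mm10) had 30.4 to 57.9. Ddit3, Trib3, Sesn2 and Ppp1r15a lay between 1.59 and 9.86 FPKM, Asns between 0.136 and 17.1, and Chac1 between 0.274 and 9.68. Psat1 and Phgdh, enzymes of serine synthesis, were near the floor of the table, with means of 0.405 and 0.143 FPKM over the libraries. Psat1 ranged from 0.106 to 2.37 FPKM, the highest being high fat Jnk1Jnk2 replicate 3, whose group mates had 0.263 and 0.328. Phgdh ranged up to 0.338 FPKM and was listed at 0 in chow Jnk1 replicate 3. The 8 other members passed the filter of a mean of at least 1 FPKM and were tested among 10562 loci. A change is the difference between group means of log2(FPKM + 1), given ± SE with 3 libraries per group, and on this scale the change of a low gene comes out too small. A locus counts as called when its limma p, adjusted by Benjamini-Hochberg over all tested loci, is under 0.05.

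**Figure D1:**
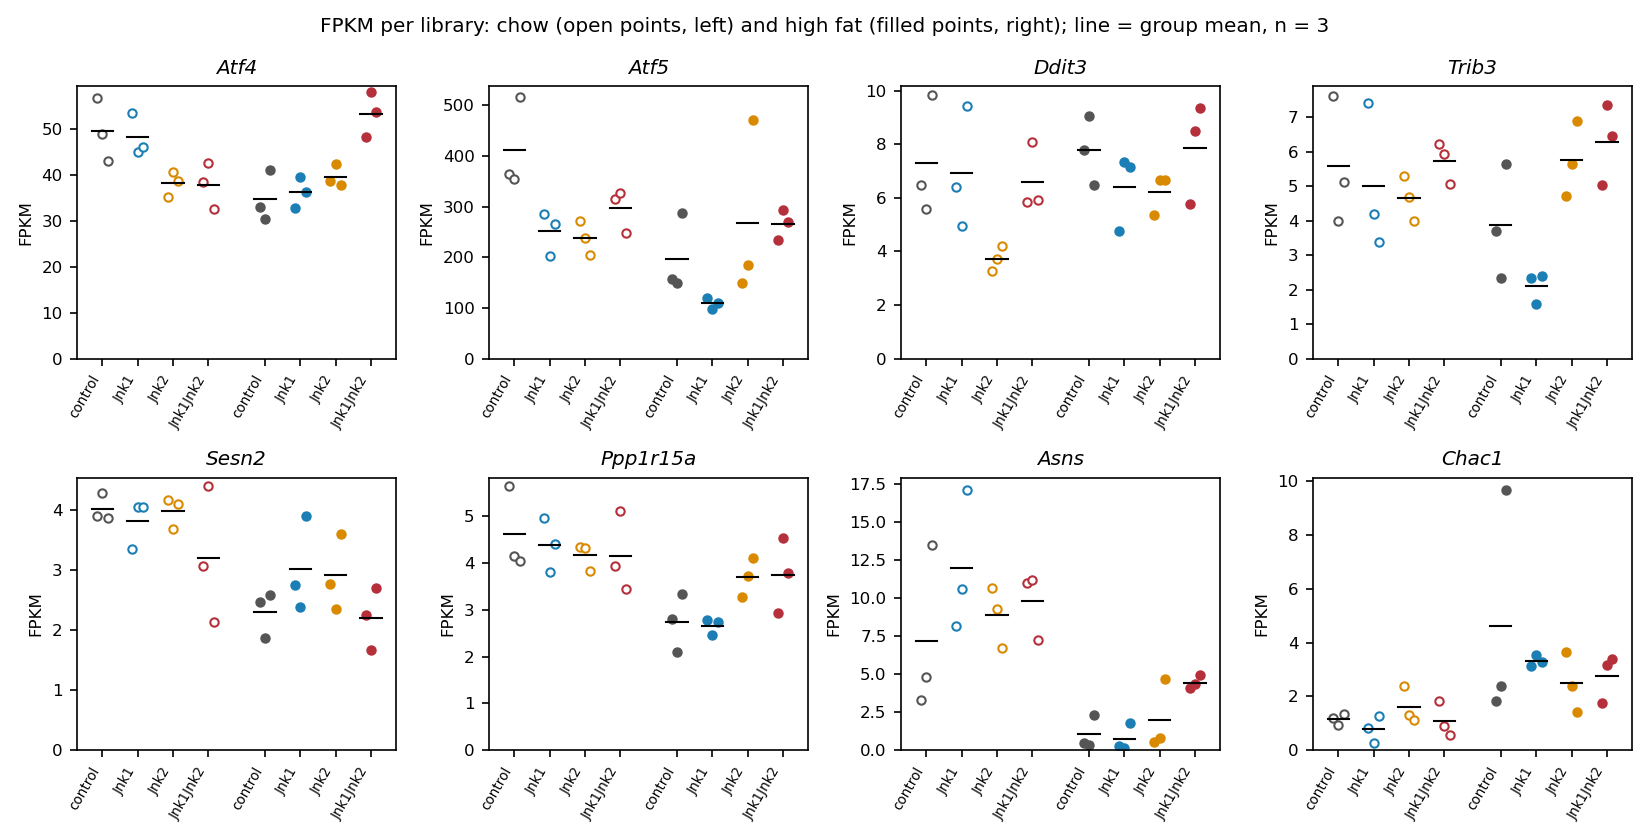
FPKM per library of the 8 tested members (vertical axes from 0) in the 4 genotypes on chow (open points, left) and high fat (filled points, right), with a line at each group mean of 3 libraries. Asns lay between 3.31 and 17.1 FPKM on chow and between 0.136 and 4.92 on high fat, and Atf4 on high fat was highest in the Jnk1Jnk2 libraries.

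Most of these genes were lower on high fat in control liver. The comparison of high fat with chow in the control genotype asks how they differ between the diets where neither floxed allele is present. Of the 8 tested members 5 were called lower and 1 higher, against 6.19% of all tested loci called lower and 10.1% called higher, and the members' median change was -0.54 against 0.04 over all loci. Of all calls 61.9% were higher, and 44.5% with median-of-ratios size factors. Of 16 tested macrophage and Kupffer cell markers 8 were higher and 0 lower, with summed levels of 411.5 to 477.4 FPKM on high fat and 219.9 to 343.2 on chow, and their part in the members' changes was not tested.

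Asns, the asparagine synthetase gene (chr6:7675171-7693182), had 3.31, 4.77 and 13.5 FPKM in the chow control libraries and 0.462, 0.356 and 2.28 on high fat. The groups did not overlap, replicate 3 was the highest in each, and the change was -1.93 ± 0.48 (adjusted p = 0.0105). Replicate 3 on chow is one of the libraries with pancreas markers. Chow Jnk1 replicate 1, which had the most, had the lowest Asns of its group. The part of pancreas tissue in the Asns change was not tested. Without chow control replicate 3 the Asns change was -1.42 (adjusted p = 0.0721), without high fat control replicate 2 it was -1.70 (adjusted p = 0.0542), and without the 5 libraries with pancreas markers it was -1.24 (adjusted p = 0.219).

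Atf4 had 56.8, 48.9 and 43.0 FPKM on chow and 32.9, 30.4 and 41.0 on high fat in control liver. The groups did not overlap, though high fat replicate 3 came close to the lowest chow library, and the change was -0.50 ± 0.13 (adjusted p = 0.0106). Atf5 (chr7:44812256-44816658) had 365, 355 and 517 FPKM on chow and 156, 148 and 287 on high fat. Again the groups did not overlap and replicate 3 was the highest on both diets, with a change of -1.11 ± 0.31 (adjusted p = 0.0203). The Atf4 call ended without chow control replicate 1 (-0.40, adjusted p = 0.0604) or high fat control replicate 2 (-0.41, adjusted p = 0.0595). The Atf5 call ended without chow control replicate 3 (-0.93, adjusted p = 0.0937), high fat control replicate 1 (-0.97, adjusted p = 0.0783) or replicate 2 (-0.94, adjusted p = 0.0916), and without the libraries with pancreas markers (-0.80, adjusted p = 0.286).

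Both feedback and signalling genes with a call were lower. Sesn2 (chr4:132492807-132510499), whose product restrains mTORC1 when leucine is short, had 3.89, 4.27 and 3.85 FPKM on chow and 2.47, 1.86 and 2.58 on high fat in control liver. Ppp1r15a (chr7:45522917-45526268), which encodes GADD34, the subunit that directs protein phosphatase 1 to eIF2α, had 5.65, 4.14 and 4.05 FPKM on chow and 2.80, 2.10 and 3.34 on high fat. Neither pair of groups overlapped, and the changes were -0.61 ± 0.17 (adjusted p = 0.0223) for Sesn2 and -0.59 ± 0.15 (adjusted p = 0.0107) for Ppp1r15a. The Sesn2 call ended without chow control replicate 2 (-0.57, adjusted p = 0.0716) or 3 (-0.63, adjusted p = 0.0513), without high fat control replicate 2 (-0.51, adjusted p = 0.0997), and without the libraries with pancreas markers (-0.67, adjusted p = 0.108). The Ppp1r15a call ended without chow control replicate 1 (-0.46, adjusted p = 0.0625), high fat control replicate 2 (-0.46, adjusted p = 0.0666) or the libraries with pancreas markers (-0.67, adjusted p = 0.067). With only these groups in the fit, Sesn2 was the single member called. Trib3 (chr2:152337425-152344060), a pseudokinase that inhibits ATF4 and CHOP, had 7.61, 3.98 and 5.13 FPKM on chow and 3.70, 2.33 and 5.64 on high fat; the groups overlapped and the difference was -0.45 ± 0.25 (adjusted p = 0.228).

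Chac1 (chr2:119351242-119354327), an enzyme that degrades glutathione, was the member called higher. It had 1.18, 0.949 and 1.34 FPKM on chow and 1.84, 2.38 and 9.68 on high fat in control liver. High fat replicate 3 lay far above its group mates, and the change was 1.12 ± 0.37 (adjusted p = 0.0442). Without that library it was 0.53 (adjusted p = 0.235), and leaving out any 1 chow control library also ended the call (1.05 to 1.18, adjusted p = 0.0847 to 0.119), as did leaving out the libraries with pancreas markers (1.54, adjusted p = 0.0773). Ddit3 (chr10:127290793-127296288) had 6.47, 5.59 and 9.86 FPKM on chow and 7.79, 9.07 and 6.47 on high fat, with overlapping groups and a difference of 0.10 ± 0.22 (adjusted p = 0.793).

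In Jnk1 liver, too, most called members were lower on high fat. High fat against chow in Jnk1 liver called 5 of 8 members lower and 1 higher, against 5.81% and 9.22% of all loci, with a median change of -0.48 against 0.04. Of 16 macrophage and Kupffer cell markers 3 were higher and 0 lower. Of all calls 61.3% were higher, and 44% with size factors. Asns had 8.16, 10.6 and 17.1 FPKM on chow and 0.251, 0.136 and 1.80 on high fat. All chow libraries were above all high fat ones, the change was -2.97 ± 0.48 (adjusted p = 0.000459), and it was called under each of 16 alternatives. Atf5 had 286, 201 and 266 FPKM on chow and 120, 98.6 and 110 on high fat, a change of -1.18 ± 0.31 (adjusted p = 0.0146). Trib3 had 7.42, 4.21 and 3.39 FPKM on chow and 2.34, 1.59 and 2.40 on high fat, a change of -0.90 ± 0.25 (adjusted p = 0.018). Neither pair of groups overlapped. Atf4 was 53.5, 44.9 and 45.9 FPKM on chow and 32.7, 39.5 and 36.2 on high fat, a change of -0.40 ± 0.13 (adjusted p = 0.0357), again with no overlap. Ppp1r15a changed by -0.55 ± 0.15 (adjusted p = 0.0157), with 4.96, 3.81 and 4.40 FPKM on chow and 2.77, 2.47 and 2.74 on high fat. Chac1 had 0.810, 0.274 and 1.26 FPKM on chow and 3.12, 3.55 and 3.29 on high fat, a change of 1.32 ± 0.37 (adjusted p = 0.0213). The Chac1 groups did not overlap and the high fat libraries lay close together, although its adjusted p went to between 0.0523 and 0.0797 with each of chow replicates 1 and 2 and of the high fat replicates left out in turn (1.09 to 1.35). Sesn2 had 3.34, 4.04 and 4.04 FPKM on chow and 2.75, 2.38 and 3.89 on high fat (-0.28 ± 0.17, adjusted p = 0.299), and Ddit3 did not pass either (-0.08 ± 0.22, adjusted p = 0.854).

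Chow Jnk1 replicate 1, the library with both pancreas and muscle markers, had the highest Atf4, Atf5, Trib3 and Ppp1r15a of its group. Without it the calls of Atf4 (-0.33, adjusted p = 0.153), Atf5 (-1.08, adjusted p = 0.0597), Trib3 (-0.63, adjusted p = 0.113) and Ppp1r15a (-0.48, adjusted p = 0.0728) also ended, and Asns was the single member called. Without high fat Jnk1 replicate 2, Atf5 (-1.11, adjusted p = 0.0526), Trib3 (-0.78, adjusted p = 0.0783) and Ppp1r15a (-0.51, adjusted p = 0.0568) were not called. The Atf4 call ended also without chow replicate 3 (-0.43, adjusted p = 0.0579) and high fat replicate 1 (-0.34, adjusted p = 0.146) or 3 (-0.41, adjusted p = 0.0828). The interaction of diet with Jnk1 called 0 of 8 members in limma (0 at an unadjusted p under 0.05), and 0% of all loci. Of all 10562 loci 545 had an unadjusted p under 0.05.

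In Jnk2 liver fewer members were called. High fat against chow called 1 of 8 members lower and 1 higher, against 6.39% and 19.7% of all loci, and the members' median change was 0.02 against 0.10. Of 16 macrophage and Kupffer cell markers 12 were higher and 0 lower. Of all calls 75.5% were higher, and 45.7% with size factors, which moved the median of all loci to -0.03. Asns had 10.6, 9.27 and 6.74 FPKM on chow and 0.50, 0.808 and 4.64 on high fat. The groups did not overlap, replicate 3 was the lowest on chow and the highest on high fat, and the change was -1.97 ± 0.48 (adjusted p = 0.00577). It was called under each of 16 alternatives. Ddit3 had 3.28, 3.72 and 4.19 FPKM on chow, the lowest of any group, and 5.38, 6.67 and 6.66 on high fat. These did not overlap either, and the change was 0.61 ± 0.22 (adjusted p = 0.0417), but the call ended with each of the 6 libraries left out in turn (0.54 to 0.70, adjusted p = 0.0558 to 0.122) and with size factors (0.48, adjusted p = 0.11).

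Atf4 in Jnk2 liver had 35.1, 40.5 and 38.6 FPKM on chow and 38.6, 42.2 and 37.8 on high fat, a difference of 0.05 ± 0.13 (adjusted p = 0.792). Atf5 had 271, 238 and 204 FPKM on chow and 148, 184 and 470 on high fat. High fat replicate 3 lay far above its group mates, the groups overlapped, and the difference was -0.01 ± 0.31 (adjusted p = 0.99). Sesn2 had 4.16, 3.67 and 4.09 FPKM on chow and 2.76, 2.35 and 3.60 on high fat, a difference of -0.36 ± 0.17 (adjusted p = 0.131) without overlap that passed with size factors (-0.48, adjusted p = 0.0342), quantile normalization (-0.46, adjusted p = 0.0365) and the length trend removed (-0.52, adjusted p = 0.0198). Trib3 (0.25 ± 0.25), Chac1 (0.395 ± 0.37) and Ppp1r15a (-0.14 ± 0.15) had overlapping groups and adjusted p-values of 0.463 to 0.527.

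The interaction of diet with Jnk2 tests whether the diet effect differed from that of the control. It called 0 of 8 members in limma, against 9.52% of all loci. An unadjusted p under 0.05 was found for 3 of 8 members, against 2837 of 10562 loci. Of all calls 65% were higher, and 48.8% with size factors. The nearest to a call was Atf4, at 0.56 ± 0.18 (adjusted p = 0.0538); it passed without high fat control replicate 3 (0.68, adjusted p = 0.0176) or chow control replicate 3 (0.65, adjusted p = 0.0433). Atf5 (1.09 ± 0.44, adjusted p = 0.113) passed without high fat control replicate 3 (1.40, adjusted p = 0.0397) or high fat Jnk2 replicate 1 (1.42, adjusted p = 0.0452). Ppp1r15a differed by 0.45 ± 0.21 (adjusted p = 0.172).

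**Figure D2:**
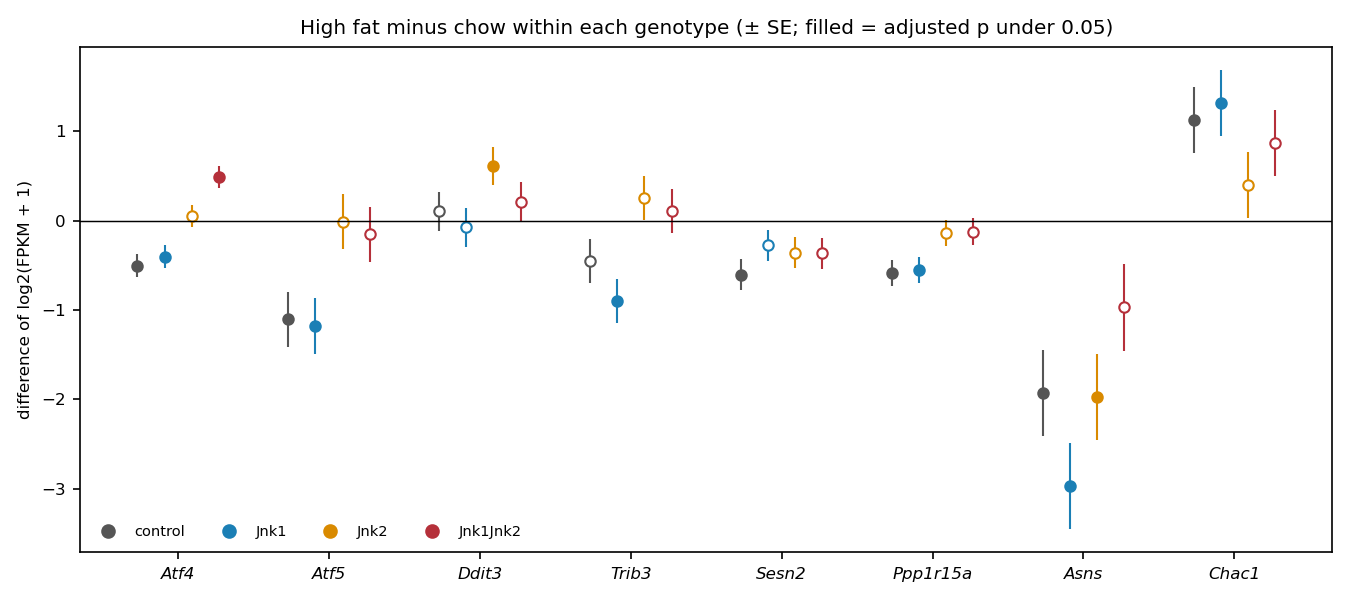
Change of the 8 tested members with diet, high fat minus chow, on the log2(FPKM + 1) scale (vertical axis) in the 4 genotypes (colours), with SE bars and filled points for adjusted p under 0.05. The Atf4 change is -0.50 in control and 0.49 in Jnk1Jnk2 liver, and the Asns change lies below 0 in all 4 genotypes, its call failing in Jnk1Jnk2.

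Without both kinases, Atf4 went the other way. In Jnk1Jnk2 liver it had 38.4, 42.6 and 32.4 FPKM on chow and 48.3, 57.9 and 53.6 on high fat. All high fat libraries were above all chow ones, and the change was 0.49 ± 0.13 (adjusted p = 0.00288). With the length trend removed it was 0.17 (adjusted p = 0.236), and with quantile normalization 0.22 (adjusted p = 0.124). Atf4 was the 1 member called higher and 0 were lower, against 30.1% and 26.8% of all loci, so the members' share was below that of all loci. Macrophage and Kupffer cell markers moved in the same comparison: 13 of 16 were higher and 0 lower, and their sum went from 237.2 to 257.1 FPKM on chow to 642.5 to 841.2 on high fat. Their part in the Atf4 change was not tested. Asns had 11.0, 11.2 and 7.22 FPKM on chow and 4.07, 4.31 and 4.92 on high fat, a difference of -0.97 ± 0.48 (adjusted p = 0.0927) without overlap, which passed with the length trend removed (-1.29, adjusted p = 0.0361). Chac1 had 1.82, 0.879 and 0.568 FPKM on chow and 1.76, 3.15 and 3.40 on high fat, a difference of 0.87 ± 0.37 (adjusted p = 0.0519) that passed without chow Jnk1Jnk2 replicate 1 (1.11, adjusted p = 0.0295) or high fat replicate 1 (1.08, adjusted p = 0.0331). Sesn2, at -0.37 ± 0.17 (adjusted p = 0.0755), passed without chow replicate 3 (-0.56, adjusted p = 0.0115) or high fat replicate 3 (-0.48, adjusted p = 0.0422) and with size factors (-0.40, adjusted p = 0.0373). Atf5 (-0.15 ± 0.31), Ppp1r15a (-0.12 ± 0.15), Trib3 (0.10 ± 0.25) and Ddit3 (0.21 ± 0.22) had adjusted p-values of 0.417 to 0.739. With the length trend removed, Atf5 was at -0.53, Ddit3 at -0.45 and Trib3 at -0.21, the last 2 with the sign turned, Ppp1r15a at -0.24 and Chac1 at 0.44 (adjusted p = 0.085 to 0.485).

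The diet effect on Atf4 differed between Jnk1Jnk2 and control liver. The interaction was 0.99 ± 0.18 (adjusted p = 0.000512), with every high fat library below every chow library in the control and above it in Jnk1Jnk2. It was called under each of 22 alternatives, from 0.73 to 1.11, the lowest with the length trend removed. In the same interaction 9 of 16 macrophage and Kupffer cell markers were higher and 0 lower, and their part was not tested. Atf4 was the 1 member of 8 called higher in this interaction and 0 were lower, against 15.8% and 19.1% of all loci. Atf5 (0.95 ± 0.44, adjusted p = 0.0968) and Ppp1r15a (0.46 ± 0.21, adjusted p = 0.089) did not pass, and both passed without high fat control replicate 3 (1.25, adjusted p = 0.0317, and 0.58, adjusted p = 0.0444). Ppp1r15a passed also without chow Jnk1Jnk2 replicate 2 (0.59, adjusted p = 0.0386) or high fat Jnk1Jnk2 replicate 1 (0.59, adjusted p = 0.0316). Asns differed by 0.96 ± 0.68 (adjusted p = 0.283). Ddit3 differed by 0.11 ± 0.30 (adjusted p = 0.807), and by -0.44 with the length trend removed (adjusted p = 0.288). Trib3 differed by 0.55 ± 0.35 and Chac1 by -0.25 ± 0.52, and with the length trend removed by 0.29 and -0.62, none of them called. These diet and genotype comparisons share libraries, the control ones above all, so they are not independent of each other.

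On high fat, Atf4, Asns and Trib3 were higher in Jnk1Jnk2 liver than in control. Jnk1Jnk2 against control on high fat called 3 of 8 members higher and 0 lower, against 19.6% and 31.6% of all loci, with a median change of 0.41 against -0.07. Of all calls 38.3% were higher, and 49.7% with size factors. Atf4 had 48.3, 57.9 and 53.6 FPKM in Jnk1Jnk2 against 32.9, 30.4 and 41.0 in control. The groups did not overlap, and the change was 0.61 ± 0.13 (adjusted p = 0.000551), called under each of 16 alternatives and 0.44 with the length trend removed. Asns had 4.07, 4.31 and 4.92 FPKM in Jnk1Jnk2 against 0.462, 0.356 and 2.28 in control. These did not overlap, the change was 1.54 ± 0.48 (adjusted p = 0.0121), and with the length trend removed it was 1.37 and still called. Without high fat control replicate 1 (1.36, adjusted p = 0.0532) or 2 (1.31, adjusted p = 0.0524) the Asns call ended.

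Trib3 had 5.05, 7.35 and 6.47 FPKM in Jnk1Jnk2 against 3.70, 2.33 and 5.64 in control on high fat. The groups overlapped, since control replicate 3 exceeded the lowest Jnk1Jnk2 library, and the change was 0.62 ± 0.25 (adjusted p = 0.0416). The call ended under 9 of 15 alternatives, among them the length trend removed (0.45, adjusted p = 0.139) and each of high fat control replicates 1 (0.62, adjusted p = 0.0863) and 2 (0.37, adjusted p = 0.229) and Jnk1Jnk2 replicates 2 (0.52, adjusted p = 0.145) and 3 (0.60, adjusted p = 0.0906) left out. Ppp1r15a had 2.92, 4.53 and 3.79 FPKM against 2.80, 2.10 and 3.34, a difference of 0.34 ± 0.15 (adjusted p = 0.0596) that passed with size factors (0.43, adjusted p = 0.0127), quantile normalization (0.53, adjusted p = 0.00333) and the length trend removed (0.34, adjusted p = 0.0469). It passed also without high fat control replicate 3 (0.45, adjusted p = 0.026) or Jnk1Jnk2 replicate 1 (0.47, adjusted p = 0.0169). Atf5 (0.49 ± 0.31, adjusted p = 0.194), Chac1 (-0.34 ± 0.37, adjusted p = 0.461), Sesn2 (-0.05 ± 0.17, adjusted p = 0.831) and Ddit3 did not pass. Ddit3 had 5.78, 8.50 and 9.36 FPKM in Jnk1Jnk2 against 7.79, 9.07 and 6.47 in control, with a difference of 0.00 ± 0.22 (adjusted p = 0.994). With the length trend removed Ddit3 was at -0.45 (adjusted p = 0.089), Atf5 at 0.27 (adjusted p = 0.515), Chac1 at -0.60 (adjusted p = 0.173) and Sesn2 at 0.08 (adjusted p = 0.714), so the sign of Ddit3 and Sesn2 turned.

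Markers of other cells also moved in this comparison. Of 16 tested macrophage and Kupffer cell markers 9 were higher and 0 lower in high fat Jnk1Jnk2 than in control, with a summed level of 642.5 to 841.2 FPKM against 411.5 to 477.4, and none of the markers found was listed at 0. Summed levels of some other marker lists did not overlap either. Cholangiocyte markers had 37.3 to 65.6 FPKM in Jnk1Jnk2 against 22.15 to 31.12 in control. Liver endothelial markers had 104.6 to 119.8 against 85.63 to 92.84, and hepatocyte markers 74540 to 88540 against 62310 to 71820. The part of all these markers in the members' result was not tested. Skeletal muscle markers stood high in Jnk1Jnk2 replicate 3 alone (1.42 and 3.47 FPKM in its group mates), and without the libraries with muscle markers Atf4 and Asns stayed called while Trib3 did not (0.60, adjusted p = 0.0652).

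**Figure D3:**
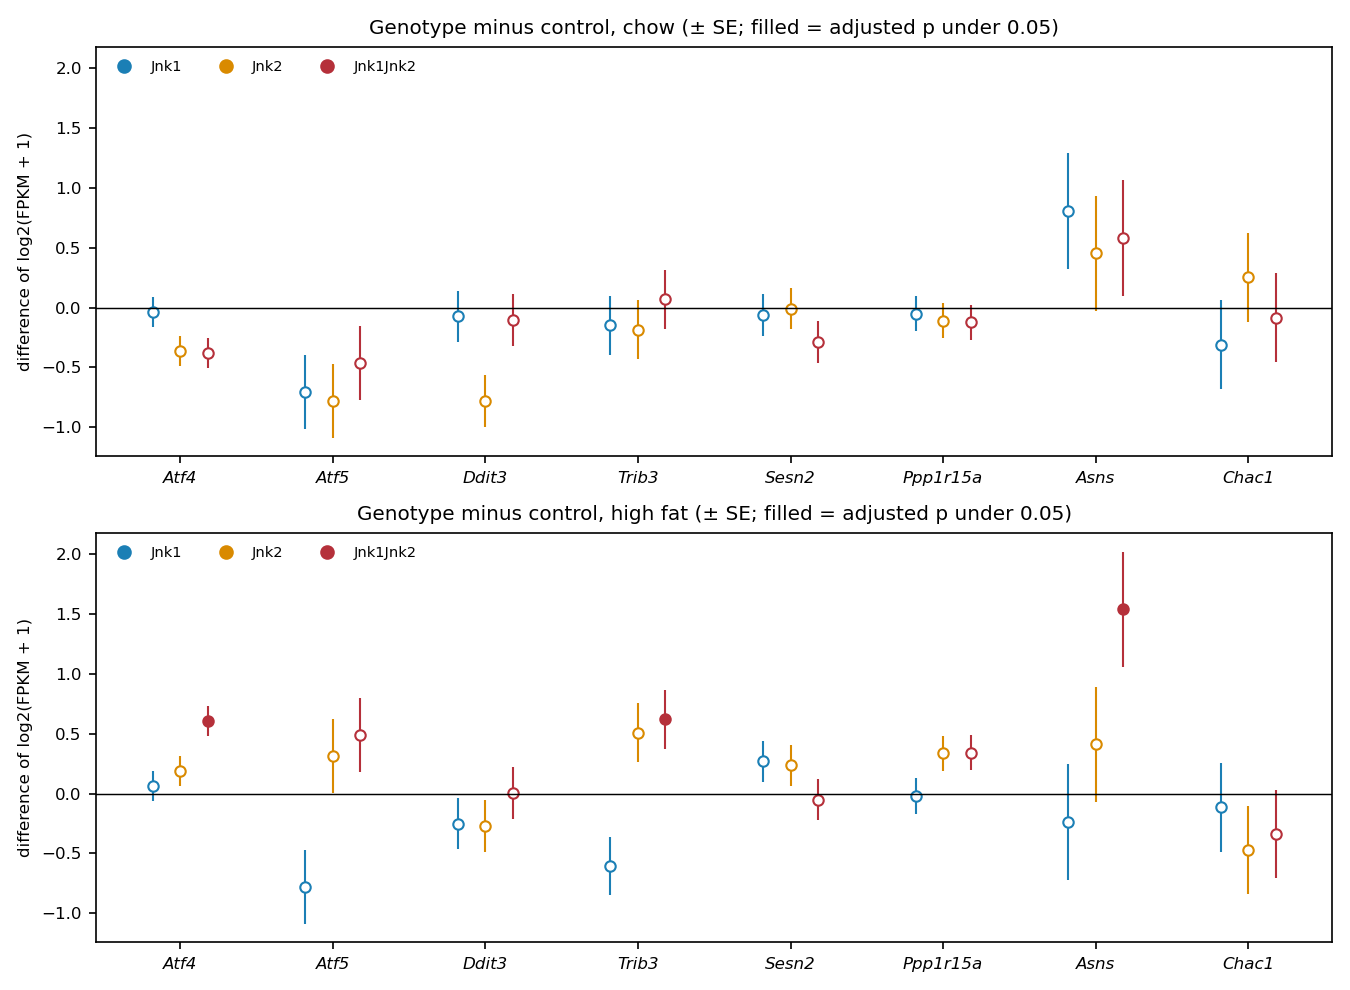
Change of the 8 tested members with genotype, minus control, on the log2(FPKM + 1) scale (vertical axes), on chow (top) and on high fat (bottom), with SE bars and filled points for adjusted p under 0.05. No point is filled on chow, and on high fat Atf4, Trib3 and Asns are filled in Jnk1Jnk2.

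On high fat, limma called 0 members in Jnk1 or Jnk2 liver against control. Jnk1 against control had 2 of 8 at an unadjusted p under 0.05, against 1253 of 10562 loci, while 0.227% of all loci were called. The 2 were Atf5 (120, 98.6 and 110 FPKM against 156, 148 and 287, a difference of -0.78 ± 0.31, adjusted p = 0.307) and Trib3 (2.34, 1.59 and 2.40 FPKM against 3.70, 2.33 and 5.64, a difference of -0.61 ± 0.25, adjusted p = 0.322). The Atf5 libraries did not overlap. Jnk2 against control had 1 of 8 at an unadjusted p under 0.05, against 2922 of 10562 loci, while 12.4% of all loci were called. That member was Ppp1r15a, with 3.27, 3.73 and 4.11 FPKM in Jnk2 against 2.80, 2.10 and 3.34 in control and a difference of 0.34 ± 0.15 (adjusted p = 0.137).

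The double loss was also compared with each single loss on high fat. Against Jnk1, 5 of 8 members were called higher and 0 lower, against 22.9% and 33.8% of all loci, with a median of 0.45 against -0.08. Of all calls 40.4% were higher, and 50.7% with size factors. Trib3 (5.05, 7.35 and 6.47 FPKM against 2.34, 1.59 and 2.40) was higher by 1.23 ± 0.25 (adjusted p = 0.000346) and Atf5 (235, 292 and 269 FPKM against 120, 98.6 and 110) by 1.27 ± 0.31 (adjusted p = 0.00184). Asns was higher by 1.78 ± 0.48 (adjusted p = 0.00418) and Atf4 by 0.55 ± 0.13 (adjusted p = 0.00114). The Jnk1Jnk2 and Jnk1 libraries of these genes did not overlap. Each of their calls held under every alternative tried, with Atf4 at 0.35 with the length trend removed. Ddit3, not called, turned from 0.26 to -0.25 there, and Chac1, not called, went from -0.22 to -0.53 and Sesn2, not called, from -0.32 to -0.18. Of 16 macrophage and Kupffer cell markers 11 were higher and 0 lower in the same comparison (summed level 340.1 to 536.6 FPKM in Jnk1), and their part was not tested. Ppp1r15a was higher by 0.36 ± 0.15 (adjusted p = 0.0427), and its groups did not overlap either. Its call nevertheless ended under 10 of 15 alternatives. The adjusted p was 0.0663, 0.115 and 0.0703 without high fat Jnk1 replicates 1, 2 and 3. It was 0.21 and 0.0904 without Jnk1Jnk2 replicates 2 and 3.

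Against Jnk2 on high fat, 1 of 8 members was called higher and 0 lower, against 15.3% and 33.2% of all loci. Of 16 macrophage and Kupffer cell markers 5 were higher and 0 lower. Of all calls 31.6% were higher, and 48.4% with size factors, which moved the median of all loci from -0.14 to -0.02. The member was Atf4, at 48.3, 57.9 and 53.6 FPKM against 38.6, 42.2 and 37.8, a change of 0.42 ± 0.13 (adjusted p = 0.0105) without overlap that ended without Jnk1Jnk2 replicate 2 (0.36, adjusted p = 0.0525). Asns had 4.07, 4.31 and 4.92 FPKM against 0.50, 0.808 and 4.64, a difference of 1.13 ± 0.48 (adjusted p = 0.0599). Atf5 had 235, 292 and 269 FPKM against 148, 184 and 470, a difference of 0.17 ± 0.31 (adjusted p = 0.667) with overlapping groups. Jnk2 replicate 3 lay among the Jnk1Jnk2 libraries in Asns and above them all in Atf5. Without that library Asns (1.72, adjusted p = 0.00714) and Atf5 (0.68, adjusted p = 0.0314) were called too. Ddit3 (0.28 ± 0.22), Sesn2 (-0.29 ± 0.17), Chac1 (0.13 ± 0.37), Trib3 (0.11 ± 0.25) and Ppp1r15a (0.00 ± 0.15) were not called. With the length trend removed Ddit3 (-0.20) and Chac1 (-0.05) turned sign without a call, and Atf4 (0.34) stayed called.

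On chow no genotype had a called member. Jnk2 against control had 3 of 8 members at an unadjusted p under 0.05, against 1390 of 10562 loci, while 0.454% of all loci were called. Ddit3, at 3.28, 3.72 and 4.19 FPKM against 6.47, 5.59 and 9.86, differed by -0.78 ± 0.22 (adjusted p = 0.113), with every Jnk2 library below every control one. Atf4 (-0.36 ± 0.13, adjusted p = 0.204) and Atf5 (-0.78 ± 0.31, adjusted p = 0.272) also did not overlap and did not pass. Jnk1 against control had 1 of 8 at an unadjusted p under 0.05, against 1503 of 10562 loci, while 2.2% of all loci were called. That member, Atf5, differed by -0.71 ± 0.31 (adjusted p = 0.291). Jnk1Jnk2 against control had 1 of 8 at that unadjusted threshold, Atf4 (-0.38 ± 0.13, adjusted p = 0.248), against 1334 of 10562 loci. Of all loci 0.161% were called. Of those calls 17.6% were higher, and 33.3% with quantile normalization. Jnk1Jnk2 against Jnk1 on chow had 1 of 8 there, Atf4 (-0.34 ± 0.13, adjusted p = 0.129), against 2083 of 10562 loci. Of all loci 3.52% were called. Of those calls 16.9% were higher, and 47.1% with size factors. Jnk1Jnk2 against Jnk2 on chow had 1 of 8 at an unadjusted p under 0.05, Ddit3 (0.68 ± 0.22, adjusted p = 1), against 453 of 10562 loci. Of all loci 0.0473% were called.

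Ordered by group mean, Atf4 ran from 53.3 FPKM in high fat Jnk1Jnk2 through 49.6 in chow control, 48.1 in chow Jnk1, 39.5 in high fat Jnk2, 38.1 in chow Jnk2, 37.8 in chow Jnk1Jnk2 and 36.1 in high fat Jnk1 to 34.8 in high fat control. Neighbours in that order overlapped except between chow Jnk1 and high fat Jnk2. Asns ran from 11.9 FPKM in chow Jnk1 through 9.80 in chow Jnk1Jnk2, 8.88 in chow Jnk2, 7.18 in chow control, 4.44 in high fat Jnk1Jnk2, 1.98 in high fat Jnk2 and 1.03 in high fat control to 0.728 in high fat Jnk1. All neighbours in the Asns order overlapped.

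Other genes of the pathway are given by list, beside the share of all loci called in the same direction. The kinases that phosphorylate eIF2α, with its phosphatase partners, form a list of 8 tested genes. In Jnk1Jnk2 against control on high fat 4 were lower and 1 higher (50% and 12.5%, against 31.6% and 19.6% of all loci), with a median of -0.29 against -0.07. Eif2ak2, the kinase that senses double-stranded RNA, was 1.85 ± 0.246 FPKM (mean ± SD, n = 3) against 4.03 ± 0.0784, a change of -0.82 ± 0.13 (adjusted p = 3.28e-05). Eif2ak3, the endoplasmic reticulum kinase PERK, changed by -0.78 ± 0.10 (adjusted p = 7.4e-06), and Eif2ak4, the amino acid sensor GCN2, by -0.62 ± 0.10 (adjusted p = 4.85e-05). Ppp1cc, a catalytic subunit of protein phosphatase 1, was higher by 0.48 ± 0.11 (adjusted p = 0.000937). With the length trend removed the list gave 3 lower and 2 higher, its median moved to 0.04, and Eif2ak4 fell by 0.23 (adjusted p = 0.0487). In high fat against chow in Jnk2 this list gave 1 higher and 0 lower (12.5% higher, against 19.7% of all loci). In high fat against chow in Jnk1Jnk2 it gave 1 higher and 4 lower (12.5% and 50%, against 30.1% and 26.8%). There Eif2ak2, Eif2ak3 and Eif2ak4 were no longer called with the length trend removed (adjusted p = 0.227, 0.121 and 0.456). The Eif2ak2 call there also ended with any of chow Jnk1Jnk2 replicates 1 and 3 and high fat replicates 1 and 2 left out (-0.32 to -0.23, adjusted p = 0.0692 to 0.181), and the 1 higher gene was lost without chow Jnk1Jnk2 replicate 3 or high fat Jnk1Jnk2 replicate 3, with 2 higher without chow Jnk1Jnk2 replicate 1.

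Of 50 further genes of the ATF4 pathway (other targets, transporters and tRNA synthetases), 37 were tested. In Jnk1Jnk2 against control on high fat 3 were higher and 11 lower, with a median of -0.17 against -0.07. The 29.7% lower is close to the 31.6% of all loci, and the 8.11% higher stands against 19.6%. Fgf21, a hormone induced by ATF4 and by PPARα, had 39.5, 44.8 and 54.2 FPKM in Jnk1Jnk2 against 6.29, 10.4 and 15.4 in control, a change of 2.08 ± 0.44 (adjusted p = 0.000692). Eif4ebp1, an inhibitor of cap-dependent translation, was higher by 0.88 ± 0.13 (adjusted p = 1.85e-05). Slc38a2, a neutral amino acid transporter, was lower by 1.21 on the log2 scale (change -1.21 ± 0.25, adjusted p = 0.000586), and Eprs, a tRNA synthetase for glutamate and proline, changed by -0.85 ± 0.11 (adjusted p = 4.69e-06). With size factors the list gave 5 higher and 8 lower, and without high fat Jnk1Jnk2 replicate 1 it gave 5 and 9. In high fat against chow in control it gave 1 higher and 3 lower (2.7% and 8.11%, against 10.1% and 6.19% of all loci), the 1 higher being lost without chow control replicate 2 or high fat control replicate 1 or 3. In Jnk1Jnk2 it gave 9 and 12 (24.3% and 32.4%, against 30.1% and 26.8%), with 5 higher without chow or high fat Jnk1Jnk2 replicate 3. Got1, the cytosolic aspartate aminotransferase, was among the lower genes in control (-1.66 ± 0.39, adjusted p = 0.00789), though not without the libraries with pancreas markers (-1.51, adjusted p = 0.134), and so was Cth, the cystathionine gamma-lyase gene (-1.46 ± 0.23, adjusted p = 0.000399). In Jnk1 liver Got1 went from 372 ± 68.6 to 46.3 ± 5.28 FPKM (mean ± SD, n = 3; -2.97 ± 0.39, adjusted p = 8.45e-05). In Jnk2 against control on high fat 3 of the list were higher and 0 lower (8.11%, against 7.45% of all loci called higher), which became 1 and 1 when high fat control replicate 2 was left out and 5 and 3 when Jnk2 replicate 3 was. Among them Gpt2, a mitochondrial alanine aminotransferase, changed by 0.64 ± 0.16 (adjusted p = 0.0137), a call that ended without high fat Jnk2 replicate 3 (0.40, adjusted p = 0.0643), high fat control replicate 2 (0.54, adjusted p = 0.0723) or the libraries with pancreas markers (0.65, adjusted p = 0.0674) and with only these groups in the fit (adjusted p = 0.194).

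Chaperones and sensors of the endoplasmic reticulum, which answer to the other branches of the unfolded protein response, had lower calls where Atf4 and Asns were higher. Of 20 tested, 0 were higher and 13 lower in Jnk1Jnk2 against control on high fat, with a median of -0.63 against -0.07. That is 65% lower, against 31.6% of all loci, and 17 were lower with the length trend removed. Hspa5, the chaperone BiP, was 112 ± 12.9 FPKM (mean ± SD, n = 3) against 252 ± 11.3, a change of -1.16 ± 0.16 (adjusted p = 1.28e-05). Ern1, the sensor IRE1α, changed by -1.58 ± 0.14 (adjusted p = 2.17e-07), Hyou1, a chaperone of the same compartment, by -1.24 ± 0.22 (adjusted p = 0.000168) and Sel1l, of the degradation machinery, by -1.16 ± 0.12 (adjusted p = 7.42e-07). In Jnk2 against control on high fat 0 were higher and 14 lower (70%, against 4.96% of all loci), among them Hspa5 (-0.95 ± 0.16, adjusted p = 0.000843), while no member was called there. The 14 became 9 without high fat control replicate 3, 8 without high fat Jnk2 replicate 3, 6 without the libraries with pancreas markers and 2 with only these groups in the fit. In high fat against chow in control the list gave 3 of 20 higher and 0 lower, against 10.1% and 6.19% of all loci. None was left with size factors, without the libraries with pancreas markers, or without chow control replicate 2 or 3 or high fat control replicate 1 or 3, and 1 was left without chow control replicate 1. In Jnk2 it gave 0 higher and 7 lower (35%, against 6.39% of all loci), with 4 lower without chow Jnk2 replicate 2 or 3 or high fat Jnk2 replicate 3. In Jnk1Jnk2 it gave 1 higher (against 30.1% of all loci) and 12 lower (60%, against 26.8%). That 1 higher gene was lost without chow Jnk1Jnk2 replicate 3 or high fat Jnk1Jnk2 replicate 2. Of 16 tested clock genes, given because amino acid and stress genes vary over the day, 0 were higher and 5 lower in Jnk1Jnk2 against control on high fat (31.2%, close to the 31.6% of all loci). In high fat against chow in control 2 were higher and 2 lower (12.5% each, against 10.1% and 6.19%). These were Dbp (1.63 ± 0.33), Hlf (0.67 ± 0.14), Arntl (-1.09 ± 0.28) and Cry1 (-0.58 ± 0.18), each without overlap of the groups. In high fat against chow in Jnk1Jnk2 the called clock genes included Dbp (1.63 ± 0.33), Clock (-1.34 ± 0.19), Arntl (-1.07 ± 0.28) and Per1 (-0.76 ± 0.18). There 30.1% of all loci were higher and 26.8% lower. Clock genes were called in other comparisons too. In Jnk1 against control on chow, where 2.2% of all loci were called, they included Gm129 (2.28 ± 0.35), Usp2 (2.18 ± 0.36), Dbp (1.96 ± 0.33) and Arntl (-1.45 ± 0.28). In Jnk1Jnk2 against Jnk1 on high fat they included Per2 (-1.71 ± 0.28), Hlf (-1.50 ± 0.14), Per1 (-1.23 ± 0.18) and Usp2 (-1.13 ± 0.36), where 33.8% of all loci were lower. The part of time of day in the members' results was not tested.

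**Figure D4:**
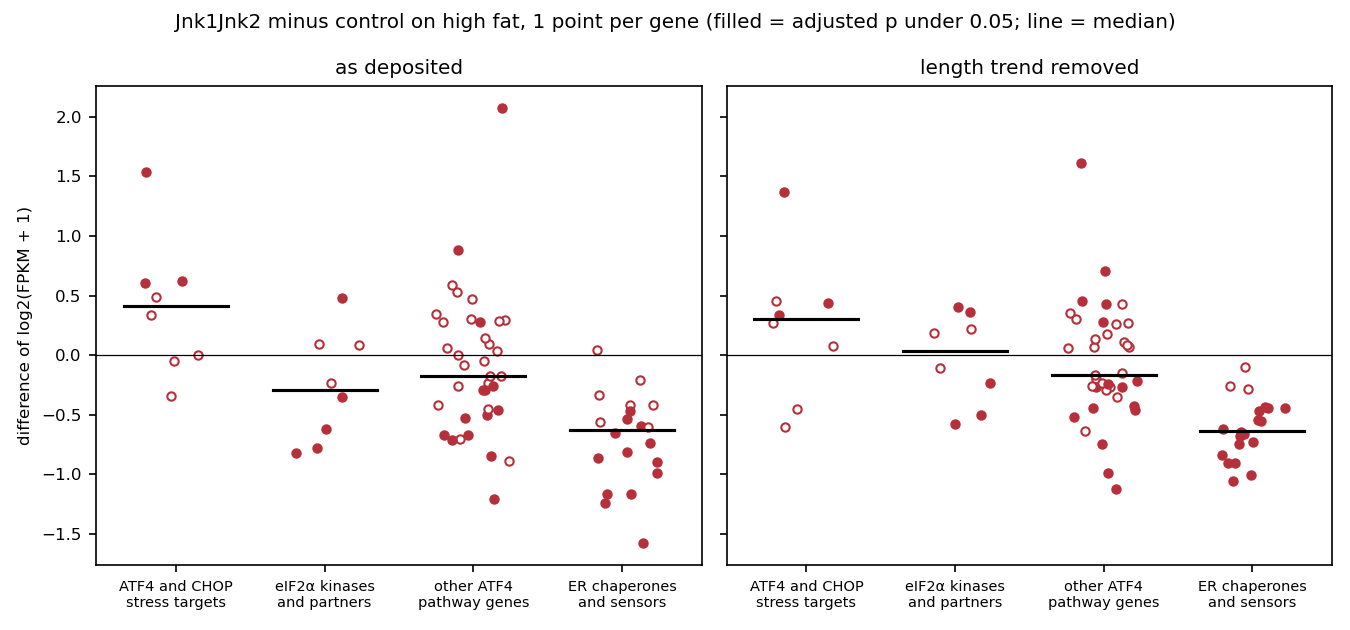
Change in Jnk1Jnk2 against control on high fat on the log2(FPKM + 1) scale (vertical axes) for the tested genes of 4 lists, 1 point per gene, as deposited (left) and with the length trend removed (right), with filled points for adjusted p under 0.05 and a line at each list's median. The members' median is 0.41 on the left and 0.31 on the right, and that of the endoplasmic reticulum chaperones and sensors is -0.63 in both.

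Over the 24 libraries, which include all group differences and share depth and scaling, the members varied together to different degrees. The Pearson correlation of log2(FPKM + 1) was 0.776 between Atf5 and Trib3, 0.765 between Ppp1r15a and Trib3, 0.715 between Asns and Atf5 and 0.645 between Atf4 and Ppp1r15a. Around the group means these were 0.565, 0.796, 0.797 and 0.745. Sesn2 was most like Asns (0.577). Ddit3 and Chac1 stood apart over all libraries, with 0.231 (Atf4) and 0.136 (Ddit3) as their highest correlations with another member. Around the group means their highest were 0.348 for Ddit3 (with Asns) and 0.45 for Chac1 (with Atf4). Chac1 and Asns had -0.567 over all libraries and 0.263 around the group means. The 5 tested loci outside the group closest to the members' mean standardised level were Rabggtb (0.898), Maf1 (0.853), Cdk9 (0.844), Rpl23 (0.843) and Mier2 (0.837), all as descriptions over these libraries.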

How the data were processed

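RNA was extracted from liver with RNeasy columns (per the labels' protocols). Per the submitters' processing notes, TopHat, Cufflinks and Cuffdiff were used on mm10, with versions not given in the sources used here. Per locus, the authors deposited FPKM, taken unchanged. Every value column belonged to a labelled sample, and samples were grouped by their titles. Coordinates are printed counted from 1, the file's starts being taken as 0-based. An exact 0 is given only as listed at 0. No count model or counting interval was applied to FPKM.

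limma-trend (limma 3.58.1, R 4.3.3) was fitted to log2(FPKM + 1) jointly over 24 libraries and 8 group means (residual degrees of freedom 16, median prior 3.43). The test covered 10562 loci, those whose mean reached 1 FPKM, out of 19796 expressed in any library, and p-values were Benjamini-Hochberg adjusted within each of 17 contrasts. An exact test of 3 against 3 cannot go under 0.1 and was not used. The fit was tested on simulated data. Within-group Pearson correlations were 0.9487 to 0.9775 and 0 library pairs looked like duplicates. Lengths came from GENCODE vM21 for 96.6% of tested loci, and the length trend is a loess fit (span 0.5) per library. The alternatives were a pseudocount of 0.1, no filter, a minimum mean of 5, size factors, quantile normalization, the length trend removed, a replicate block, a fit restricted to the groups at hand, and leaving out 1 library at a time. Leaving out the libraries with over 50 FPKM of pancreas markers or over 100 of muscle markers was added after seeing the data.

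The members and lists were chosen with earlier results of these data known. All tested members are named in high fat against chow of each genotype and in Jnk1Jnk2 against each other genotype on high fat. In the interactions, on chow and in Jnk1 or Jnk2 against control on high fat, only some or none are named. Of each other list up to 4 called genes per contrast were chosen, those with the largest changes and no overlap of groups. Of these not all are printed. Promoters came from RefSeq. Tables and plots used pandas 2.3.3, numpy 2.4.6 and matplotlib 3.10.9 under Python 3.11.15.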

Additional observations from a re-analysis of the deposited data

Results flagged for a closer look

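The change of Atf4 with diet differed between Jnk1Jnk2 and control liver, by 0.99 on the log2(FPKM + 1) scale (limma, adjusted p = 0.000512, 3 libraries per group), a test of the interaction itself. All 3 high fat libraries were lower than all chow libraries in the control and higher in Jnk1Jnk2. With the length trend removed the interaction was 0.73 and still called (limma, adjusted p = 0.00356). The diet change within Jnk1Jnk2 then went from 0.49 to 0.17 and lost its call (limma, adjusted p = 0.236). The diet change within control lost its call under 3 of 16 alternatives. Groups of 3 are too small for the test of single outlying libraries.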

How the results depend on the processing

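Of 2252 recomputed changes of members, 95 lost a call, 35 gained one, 66 stayed uncalled but moved by over 1 SE, and the other 2056 stayed on their side of the threshold. Only the changes called in the main fit, 25 of 136, could lose a call. The 95 are therefore not to be read as a share of all 2252. The sign turned in 139, none of them called before or after. The number of members called in high fat against chow moved as follows. In control it was 3 with a minimum mean of 5 FPKM, 1 without the libraries with pancreas markers, 1 with only the groups compared, and 1 to 5 with 1 library left out. In Jnk1 it was 3, 1 without pancreas-marker libraries, 1 without muscle-marker libraries, and 1 to 5. In Jnk2 it was 1 without a filter, 1 without either marker set's libraries, and 1 with any library left out. In Jnk1Jnk2 it was 2 with a pseudocount of 0.1, 3 with size factors, 3 with only the groups compared, and 1 to 2. The interaction with Jnk2 gave 1 at a minimum mean of 5, and 0 to 2. That with Jnk1Jnk2 gave 2 with quantile normalization, and 1 to 3. On high fat, Jnk1Jnk2 against control gave 1 to 4. Against Jnk1 it gave 3 at a minimum mean of 5. Against Jnk2 it gave 2 with size factors, 2 with quantile normalization, and 0 to 3. A minimum mean of 5 removes Sesn2, Ppp1r15a, Trib3 and Chac1 from the test; the cause of the other moves was not tested.

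Same-numbered replicates did not pair the samples (correlations of their deviations -0.26 to 0.207). The replicate block gave 2 members called in high fat against chow in Jnk1Jnk2 and 2 in Jnk1Jnk2 against Jnk2 on high fat, Asns being the added call in both. It ended the calls of Chac1 in high fat against chow in control (adjusted p = 0.0538), leaving 5 members, and of Ppp1r15a in Jnk1Jnk2 against Jnk1 on high fat (adjusted p = 0.056), leaving 4. Depth could not be expressed in reads, so low members such as Psat1 and Phgdh carry an unknown counting error.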
